A study of Ovis aries with 12 samples.

Results

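Solute carriers are the membrane proteins that move small molecules and ions into and out of cells and organelles, and their genes are named SLC with a family number, a letter and a member number. The members described here are the probe sets of a bovine expression array whose only annotated gene symbol has that form, up to family 52, without SLC2A1 and without the SLCO genes. There were 241 such probe sets for 170 genes, out of 24016 probe sets and 9155 gene symbols in all. A single probe set stood for 121 of the genes and several for 49, with at most 4 for a gene. By substrate, 43 probe sets were assigned to anions, 39 to the mitochondrial SLC25 family, 37 to amino acids, 30 to nucleosides, nucleotides and nucleotide sugars, 25 to metals and 23 to glucose and other sugars. A further 15 belonged to vitamins, choline and folate, 12 to sodium, proton and calcium exchangers, 10 to organic cations and amines, and 7 to fatty acids and lipids.

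Uniporters let a solute follow its gradient, whereas cotransporters and exchangers couple it to sodium, protons, chloride or another solute. Plasma membrane carriers feed glucose, lactate, amino acids, metals and vitamins to the cell, and SLC25 proteins carry metabolites, nucleotides and cofactors across the inner mitochondrial membrane. The corpus luteum, the ovarian gland that makes progesterone, depends on mitochondria for the first step of steroid synthesis and is densely supplied with blood vessels.

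The corpora lutea came from sheep, and the labels name neither breed nor age, and no altered gene or drug. Ewes were either mated to a fertile ram and pregnant, or not mated, with heat detected by a vasectomized ram, and glands were taken on day 12 or day 14. The 4 groups were day 12 non-pregnant, day 12 pregnant, day 14 non-pregnant and day 14 pregnant, with 3 ewes and 1 array per ewe in each. Per its title, the study was concerned with resistance of the gland of pregnancy to luteolysis, its regression at the end of a cycle without a conceptus.

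Levels are log2 values made with RMA, in which 1 unit is a doubling of signal, and differences are log2 differences ± standard error (SE) from a linear model fitted to all 24016 probe sets. A probe set passed when its two-sided limma p was under 0.05 after Benjamini-Hochberg adjustment across the whole array. Bovine probes read sheep RNA here, so levels of different genes were not read as relative amounts of RNA, and the brightest probe set of a class is only the one with the highest reading. Array medians lay between 5.16 and 5.24. The source labels that define the groups conflict with the titles of 9 of the 12 arrays, since every title reads day 12 pregnant. Of 12 markers of luteal steroidogenic cells, 11 were measured and 0 of them lay in the dimmest 25% of probe sets. Their mean level was 9.68 to 10.1 in the day 14 non-pregnant arrays and 10.2 to 10.4 in the other groups. The day 14 non-pregnant arrays also stood apart on the first principal component of all 24016 probe sets (29.6% of the variance). They were at 18.1, 33.7 and 40.4 on it, and the other 9 arrays lay between -13.0 and -7.0. Over the 241 solute carrier probe sets alone (24% of the variance) these arrays were at 1.29, 3.59 and 2.30. The other 9 arrays lay between -1.25 and -0.39 there. The labels name a gene array for 4 arrays (batch A, with 2 of the 3 day 14 non-pregnant arrays, 1 day 14 pregnant and 1 day 12 pregnant array) and a genome array for 8 (batch B), and the model held a term for this batch. Whether these names stand for array designs or for runs is not stated, so batch here means the name only. Day 12 non-pregnant ewes had no batch A array, so comparisons with them have no value within batch A. In a whole gland, fewer cells of a type and less RNA per cell cannot be told apart.

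On day 14, SLC16A1 was the one solute carrier that passed. It encodes MCT1, a proton-coupled carrier of lactate, pyruvate and ketone bodies. Its single probe set read 5.87, 6.04 and 6.12 in the day 14 pregnant ewes and 6.96, 7.19 and 6.60 in the day 14 non-pregnant ewes. It read 6.30, 6.37 and 6.39 in day 12 non-pregnant ewes and 6.43, 6.18 and 5.88 in day 12 pregnant ewes. Each day 14 non-pregnant array thus lay above all other 9 arrays, and the remaining groups overlapped with one another except that day 14 pregnant ewes lay below day 12 non-pregnant ewes. The day 14 difference, pregnant minus non-pregnant, was -0.94 ± 0.17 (95% interval -1.31 to -0.58), a 1.92-fold lower level in pregnancy (adjusted p = 0.0218, limma). Within batch A it was -0.77 and within batch B -1.01. Between days in non-pregnant ewes the difference, day 14 minus day 12, was 0.64 ± 0.18 and did not pass (adjusted p = 0.189), and on day 12 pregnancy differed by -0.15 ± 0.17. The change of the pregnancy difference between the days, -0.79 ± 0.24, did not pass either (adjusted p = 0.337). Over 21 alternative analyses the day 14 difference stayed between -1.13 and -0.80 and passed in 15. It missed the threshold when day 14 pregnant replicate 1 (adjusted p = 0.0620), 2 (0.0639) or 3 (0.0509) was left out, without day 14 non-pregnant replicate 1 (0.0625), without both batch A arrays of day 14 non-pregnant ewes (0.0735), or when the model held only the groups compared (0.159).

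**Figure D1:**
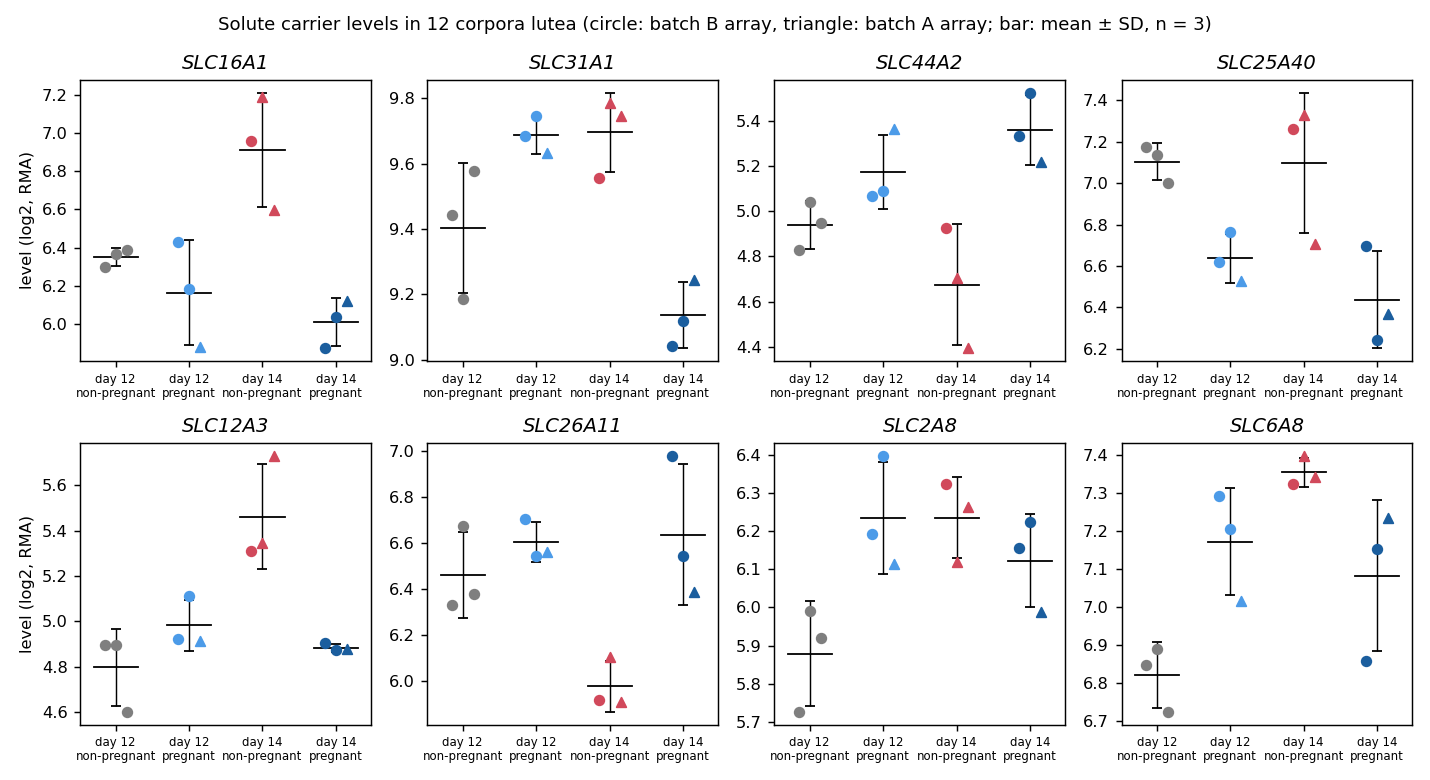
Log2 RMA level (y axis) of 8 solute carrier genes, 1 probe set each, in 12 corpora lutea by group (x axis), with circles for batch B arrays, triangles for batch A arrays, a bar at the mean and whiskers of 1 SD (n = 3). The genes are the 6 with the smallest p on day 14 and the next 2 between days in non-pregnant ewes. SLC16A1 and SLC12A3 are highest in all 3 day 14 non-pregnant arrays, and SLC31A1 is lowest in the day 14 pregnant group except for 1 day 12 non-pregnant array at 9.19.

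The count of passing members is read against the whole array. On day 14, 1 of 241 solute carrier probe sets passed, against 1.45% of all probe sets. At an unadjusted p under 0.05 there were 37 (36 genes), or 15.4% of the members, against 15.4% of all probe sets. Of these, 21 were higher in pregnancy (8.71% of members against 8.64% of all probe sets) and 16 lower (6.64% against 6.8%). The pregnant and non-pregnant groups did not overlap on day 14 for 46 members, or 19.1%, against 18.3% of all. By unadjusted p and by overlap, solute carriers as a family therefore differed on day 14 about as often as any probe set on the array. After adjustment the share was lower, at 0.415% of members from 1 probe set, against 1.45%. The median difference of the members was 0.012 against 0.029 over all probe sets. Their median SD over the 12 arrays was 0.163, against 0.162 for all.

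On day 12, 0 members passed for pregnancy in limma (0% of all probe sets). An unadjusted p under 0.05 was met by 16 (6.64% of members against 7.69% of all). Groups did not overlap for 40 (16.6% against 16.4%). Between days in non-pregnant ewes 0 members passed in limma (0.391% of all), with 23 under an unadjusted p of 0.05 (9.54% of members against 11.7% of all). Of these, 15 were higher on day 14 (6.22% against 5.32%) and 8 lower (3.32% against 6.37%). Groups did not overlap for 52 members (21.6% against 19.8%). Between days in pregnant ewes 0 passed in limma (0% of all). Here 19 were under an unadjusted p of 0.05 (7.88% of members against 4.43% of all) and 29 did not overlap (12% against 9.9%). For the interaction, which is the day 14 pregnancy difference minus the day 12 one, 0 passed in limma (0.0874% of all). An unadjusted p under 0.05 was met by 24 (9.96% of members against 9.42% of all). The day 14 comparison and the non-pregnant day comparison share the day 14 non-pregnant arrays.

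**Figure D2:**
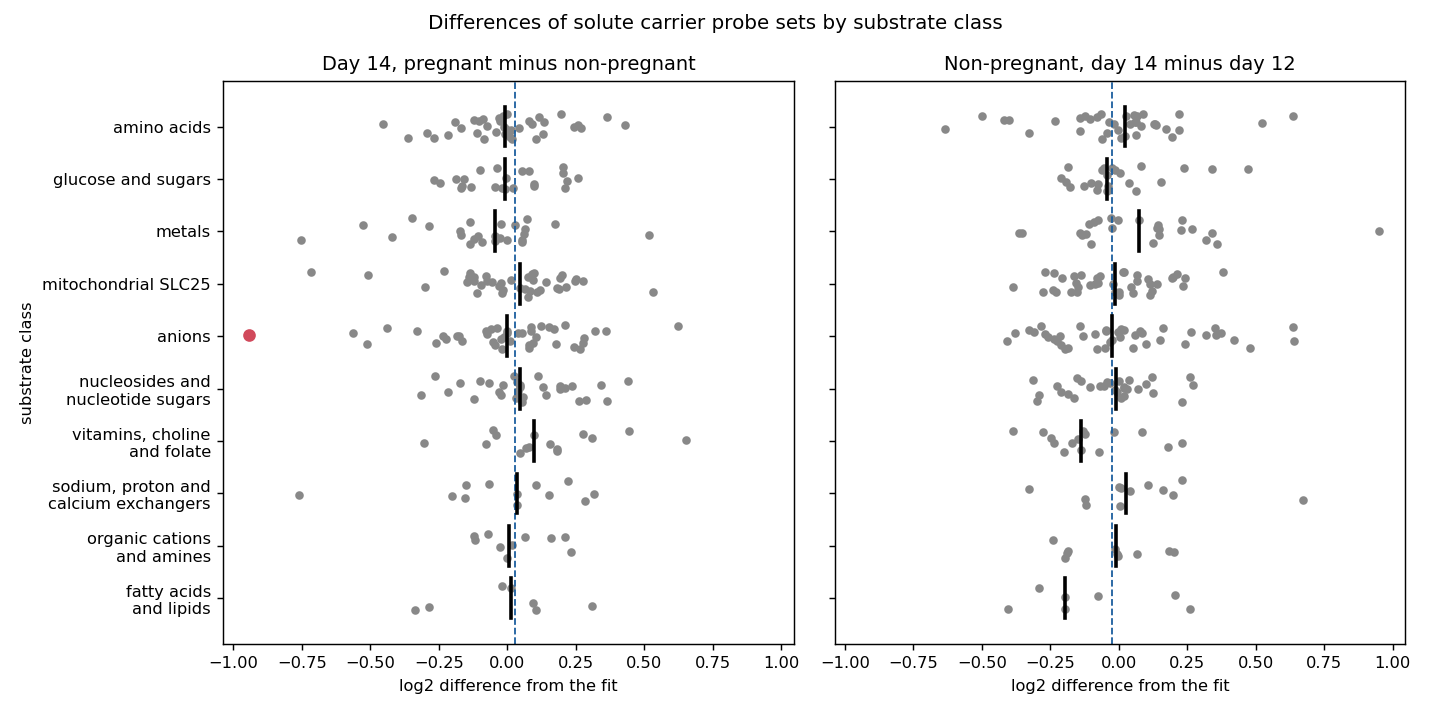
Log2 difference from the fit (x axis) of each of the 241 solute carrier probe sets by substrate class (y axis), for pregnant minus non-pregnant on day 14 (left) and day 14 minus day 12 in non-pregnant ewes (right). Short black bars are class medians, the dashed line is the median of all 24016 probe sets (0.029 left, -0.026 right) and the red point is SLC16A1, the one probe set that passed.

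Among the other anion carriers the largest day 14 differences were in salt and sulfate transport. SLC12A3, the thiazide-sensitive sodium chloride cotransporter, read 5.31, 5.35 and 5.73 in day 14 non-pregnant ewes and 4.90, 4.87 and 4.88 in day 14 pregnant ewes. Its day 12 arrays lay between 4.60 and 5.11, so the day 14 non-pregnant arrays were above all others. The day 14 difference was -0.57 ± 0.13 (adjusted p = 0.0658) and the difference between days in non-pregnant ewes was 0.64 ± 0.15 (adjusted p = 0.102), and neither passed. SLC26A11, a sulfate and chloride carrier, had the opposite order, with 5.92, 6.11 and 5.91 in day 14 non-pregnant ewes and 6.98, 6.55 and 6.39 in day 14 pregnant ewes (0.62 ± 0.15, adjusted p = 0.0738). SLC4A7, a sodium bicarbonate cotransporter that lies outside the naming rule, was at 5.79, 5.54 and 5.72 in day 14 non-pregnant ewes. In day 14 pregnant ewes it was at 5.29, 5.13 and 5.33 (-0.44, adjusted p = 0.119). All 9 arrays of the other groups lay below the 3 day 14 non-pregnant ones for SLC4A7 and above them for SLC26A11.

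Other anion carriers fixed for description gave smaller or more scattered values. SLC16A3, which encodes the lactate exporter MCT4, had day 14 differences of -0.08 ± 0.11, -0.18 ± 0.12 and -0.05 ± 0.10 in its 3 probe sets. SLC20A1, a sodium phosphate cotransporter, read 9.51, 8.59 and 9.77 in day 14 non-pregnant ewes, so replicate 2 lay below every day 14 pregnant ewe (8.81, 8.82 and 8.93; -0.51 ± 0.25, adjusted p = 0.363). SLC12A2, the sodium potassium chloride cotransporter NKCC1, differed by 0.08 ± 0.30 and 0.12 ± 0.27 in its probe sets. SLC4A4, another sodium bicarbonate cotransporter, differed by -0.23 ± 0.17. SLC17A5, the lysosomal sialic acid exporter and the brightest probe set of the class, differed by -0.26 ± 0.13 (adjusted p = 0.37). The 43 anion probe sets split into 21 above and 22 below 0, with a median of -0.001.

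The copper importer SLC31A1, or CTR1, stood just outside the threshold on day 14. It read 9.04, 9.12 and 9.24 in day 14 pregnant ewes and 9.56, 9.78 and 9.75 in day 14 non-pregnant ewes. On day 12 it read 9.68, 9.75 and 9.63 in pregnant ewes and 9.44, 9.19 and 9.58 in non-pregnant ewes. Day 14 pregnant ewes were thus low against both day 14 non-pregnant and day 12 pregnant ewes, with no overlap. The day 14 difference was -0.53 ± 0.12 (adjusted p = 0.0502, with 7 of 21 alternatives under 0.05), at -0.52 within batch A and -0.47 within batch B. Between days in pregnant ewes it was -0.55 ± 0.11 (adjusted p = 0.84). The related SLC31A2 read 3.86, 4.17 and 3.99 in day 14 non-pregnant ewes and 3.55, 3.92 and 3.86 in day 14 pregnant ewes. SLC31A2 lies outside the naming rule and was added after its values were seen.

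Zinc, iron and manganese carriers went either way. SLC39A14, or ZIP14, which imports zinc, iron and manganese, read 7.22, 6.77 and 6.80 in day 14 pregnant ewes and 6.72, 6.05 and 6.26 in non-pregnant ewes, which just failed to overlap (0.52 ± 0.18, adjusted p = 0.202). Without both batch A arrays of day 14 non-pregnant ewes the SLC39A14 difference was 0.23. SLC39A8, or ZIP8, an importer of zinc and manganese, had the largest difference of all members between days in non-pregnant ewes, 0.95 ± 0.41, with 6.33, 6.66 and 6.19 on day 14 against 5.62, 5.05 and 5.47 on day 12 (adjusted p = 0.395). In pregnant ewes it ranged from 4.86 to 6.23 on day 12 and from 5.16 to 6.24 on day 14, so those groups overlapped widely, and its day 14 pregnancy difference of -0.75 ± 0.37 was the largest of the metal carriers and did not pass (adjusted p = 0.357). The zinc importer SLC39A6 differed by -0.28 ± 0.14 and -0.35 ± 0.12 on day 14, and SLC30A1, which exports zinc, by -0.42 ± 0.18 (adjusted p = 0.279). SLC11A2, the iron carrier DMT1, and SLC11A1, a metal carrier of phagosomes, differed by -0.11 ± 0.21 and -0.02 ± 0.16. Of the 25 metal probe sets 17 lay below 0 on day 14, with a median of -0.046 (-0.14 to -0.045 over the alternatives), and their median between days in non-pregnant ewes was 0.075. SLC40A1, which exports iron, had no probe set with its symbol alone.

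Genes that handle metals inside the cell were listed beside the carriers. Of 29, 17 were measured. On day 14, when 1.45% of all probe sets passed, 2 of the 17 passed as lower in pregnant ewes and 0 as higher. These were the metallothionein MT2A, which binds zinc and copper (-1.26 ± 0.27, adjusted p = 0.0451), and the haem oxygenase HMOX2, which frees iron from haem (-1.15 ± 0.19, adjusted p = 0.0161). MT1A (-1.14 ± 0.33, adjusted p = 0.127) and HMOX1 (-0.76 ± 0.22, adjusted p = 0.125) did not pass. The ferritin chains FTH1 (-0.065 ± 0.093) and FTL (0.012 ± 0.11) and the copper chaperones ATOX1 (0.21 ± 0.13) and CCS (0.29 ± 0.09, adjusted p = 0.137) did not pass either. Mean levels of MT2A were 11.25, 11.03, 12.63 and 11.40 in day 12 non-pregnant, day 12 pregnant, day 14 non-pregnant and day 14 pregnant ewes. Those of HMOX2 were 6.028, 6.198, 6.998 and 5.905 in the same order, so both genes were highest in day 14 non-pregnant ewes. Between days in non-pregnant ewes MT2A differed by 1.46 ± 0.30 (adjusted p = 0.0696) and HMOX2 by 1.08 ± 0.21 (adjusted p = 0.0594). Neither of these day differences passed. For genes of glucose and lactate use, 13 of 18 were measured and 0 passed on day 14 in limma, among them LDHA (0.062 ± 0.14) and LDHB (0.098 ± 0.09), the subunits of lactate dehydrogenase. Of 25 partner and driver genes 15 were measured and 0 passed. BSG, the chaperone that brings MCT1 to the membrane, differed by 0.095 ± 0.085 (adjusted p = 0.643), and ATP1B3, a subunit of the sodium pump, by -0.38 ± 0.09 (adjusted p = 0.0769). Of 21 genes of amino acid sensing and glutathione 17 were measured and 0 passed.

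The amino acid carriers with the smallest p between days in non-pregnant ewes were SLC6A8 and SLC38A2, and neither passed. SLC6A8, the creatine transporter, had 2 probe sets. The brighter one read 6.85, 6.89 and 6.72 in day 12 non-pregnant ewes, 7.29, 7.21 and 7.02 in day 12 pregnant ewes, 7.32, 7.40 and 7.34 in day 14 non-pregnant ewes and 6.86, 7.15 and 7.23 in day 14 pregnant ewes. Day 12 non-pregnant ewes were low against the day 12 pregnant and day 14 non-pregnant ewes with no overlap. Between days in non-pregnant ewes the probe sets differed by 0.52 ± 0.13 and 0.64 ± 0.19 (adjusted p = 0.139 and 0.194). SLC38A2, which takes up small neutral amino acids with sodium and was the brightest of the class, read 11.66, 11.55 and 11.29 in day 12 non-pregnant ewes. In day 14 non-pregnant ewes it read 10.77, 10.61 and 11.69, so replicate 3 lay apart from the other 2 (-0.64 ± 0.25 between days, adjusted p = 0.346). Without that array SLC38A2 differed between days by -0.85 ± 0.15 and passed (adjusted p = 0.0322, limma).

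With pregnancy on day 14 the amino acid probe sets differed by -0.46 (SLC7A7) to 0.43 ± 0.22 (SLC38A2, adjusted p = 0.39). Of the 37, 0 passed in limma, against 1.45% of all probe sets. An unadjusted p under 0.05 was met by 3 of the 37, against 15.4% of all. These 3 were a probe set each of SLC6A8 (-0.27 ± 0.12), SLC38A3 and SLC1A3, a glutamate transporter outside the naming rule (0.36 ± 0.16, adjusted p = 0.32). SLC7A5, the large neutral amino acid exchanger LAT1, differed by -0.29 ± 0.24, with day 14 non-pregnant replicate 2 at 6.40 and all other arrays between 5.02 and 5.72. Its heavy chain SLC3A2 differed by -0.04 ± 0.13. SLC1A5, a glutamine exchanger, differed by -0.19 ± 0.10, and SLC38A3, a glutamine carrier, by 0.20 ± 0.15, -0.03 ± 0.09 and 0.24 ± 0.10 in its 3 probe sets. The 37 amino acid probe sets had a median of -0.010 on day 14 and 0.022 between days. SLC7A11, the cystine and glutamate exchanger, had no probe set with its symbol alone.

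Of the sugar carriers, SLC2A8, or GLUT8, a hexose transporter held mostly inside cells, was lowest in day 12 non-pregnant ewes. It read 5.73, 5.99 and 5.92 there, 6.19, 6.40 and 6.11 in day 12 pregnant ewes, and 6.32, 6.12 and 6.26 in day 14 non-pregnant ewes. In day 14 pregnant ewes it read 6.16, 6.22 and 5.99. The pregnancy difference on day 12 was 0.41 ± 0.10 (adjusted p = 0.382), and the difference between days in non-pregnant ewes was 0.47 ± 0.11 (adjusted p = 0.118). SLC2A5, the fructose transporter GLUT5, differed on day 14 by -0.27 ± 0.10 (adjusted p = 0.215) in its brightest probe set and by 0.10 ± 0.13 and -0.13 ± 0.15 in the others. The neuronal-type glucose transporter SLC2A3 differed by -0.25 ± 0.14, the proton-coupled sugar carrier SLC45A1 by 0.26 ± 0.10 and the sugar phosphate carrier SLC37A2 by -0.17 ± 0.12. The class median was -0.009 on day 14.

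Among mitochondrial carriers, SLC25A40, which imports glutathione into mitochondria, had lower readings in pregnancy on both days. It read 7.17, 7.14 and 7.0 in day 12 non-pregnant and 6.62, 6.76 and 6.53 in day 12 pregnant ewes. On day 14 it read 7.26, 7.33 and 6.71 in non-pregnant and 6.70, 6.24 and 6.37 in pregnant ewes. Pregnant and non-pregnant groups did not overlap on either day, although on day 14 the nearest arrays, at 6.70 and 6.71, nearly met. Neither difference passed. The differences were -0.41 ± 0.16 on day 12 (adjusted p = 0.598) and -0.72 ± 0.16 on day 14 (adjusted p = 0.0586). SLC25A29, a carrier of basic amino acids, read 4.87, 4.64 and 4.83 in day 14 non-pregnant ewes and 5.66, 5.38 and 5.08 in pregnant ewes (0.53 ± 0.14, adjusted p = 0.0885).

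The probe sets of SLC25A5, an exchanger of ADP and ATP, disagreed. One of its 2 probe sets read 10.64, 10.88 and 10.57 in day 14 non-pregnant and 10.19, 9.97 and 10.37 in day 14 pregnant ewes, a difference of -0.51 ± 0.15 (adjusted p = 0.121). The other read 10.87, 11.09 and 10.84 against 11.31, 10.82 and 11.29, a difference of 0.25 ± 0.13. The mean of the gene's probe sets differed by -0.13 ± 0.13, and with its 2 probe sets in opposite directions the direction of SLC25A5 is uncertain. Whether its probes also bind transcripts of its close relatives SLC25A4 and SLC25A6 was not tested. SLC25A4 differed by 0.09 ± 0.17. SLC25A20, which carries acylcarnitines, and SLC25A1, which exports citrate, were higher in all day 12 pregnant arrays than in the day 12 non-pregnant ones. The SLC25A20 probe sets differed by 0.39 ± 0.11 and 0.36 ± 0.13 (adjusted p = 0.45 and 0.588) and SLC25A1 by 0.38 ± 0.11 (adjusted p = 0.473). On day 14 those differences were -0.10 ± 0.11, -0.15 ± 0.13 and 0.11 ± 0.11. The iron importer SLC25A37 differed by 0.12 ± 0.11 on day 14 and the phosphate carrier SLC25A3, brightest of the class, by -0.08 ± 0.09. The 39 probe sets had a median of 0.047.

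A pair of nucleoside carriers had higher readings in pregnancy on both days, and neither passed. SLC29A1, the equilibrative nucleoside transporter ENT1 that takes up adenosine, read 8.54, 8.67 and 8.57 in day 12 non-pregnant and 9.33, 9.02 and 8.81 in day 12 pregnant ewes. On day 14 it read 8.48, 7.89 and 7.90 in non-pregnant and 8.69, 8.50 and 8.68 in pregnant ewes. Groups did not overlap on either day, at 0.56 ± 0.14 (adjusted p = 0.401) and 0.44 ± 0.14 (adjusted p = 0.161). Within the batches the day 14 difference was 0.78 in A and 0.12 in B, and it was 0.19 without day 14 pregnant replicate 3. Its relative SLC29A2, or ENT2, differed by 0.18 ± 0.09 on day 12 and 0.29 ± 0.09 on day 14 (adjusted p = 0.142). SLC35C1, which carries GDP-fucose into the Golgi, differed on day 14 by 0.26 ± 0.09 and 0.19 ± 0.10.

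SLC44A2, a choline transporter-like protein, read 4.93, 4.71 and 4.39 in day 14 non-pregnant and 5.33, 5.53 and 5.22 in day 14 pregnant ewes. Its difference of 0.65 ± 0.15 was the largest upward one of all members on day 14 (adjusted p = 0.0567), but its other probe set differed by 0.18 ± 0.12. The folate carrier SLC46A1 had day 14 differences of 0.44 ± 0.14 (adjusted p = 0.152), 0.31 ± 0.14 and 0.04 ± 0.18 in its 3 probe sets, and the multivitamin carrier SLC5A6 one of 0.28 ± 0.11. SLC8A1, the plasma membrane sodium calcium exchanger, differed by -0.76 ± 0.19 (adjusted p = 0.0844) in 1 probe set, with 4.49, 4.02 and 4.89 in non-pregnant and 3.82, 3.97 and 3.54 in pregnant ewes, and by -0.15 ± 0.09, -0.07 ± 0.19 and 0.03 ± 0.09 in the other 3. The mitochondrial exchanger SLC8B1 differed by 0.32 ± 0.13 and the sodium proton exchanger SLC9A5 by 0.28 ± 0.10. Fatty acid carriers differed by 0.31 ± 0.18 and 0.01 ± 0.19 (SLC27A1), -0.34 ± 0.14 (SLC27A4) and 0.10 ± 0.21 (SLC27A6). The carnitine carrier SLC22A5 differed by 0.07 ± 0.14 and -0.0027 ± 0.16, SLC22A23 by 0.23 ± 0.14, and the noradrenaline transporter SLC6A2 by 0.21 ± 0.11, 0.02 ± 0.10 and -0.12 ± 0.17.

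**Figure D3:**
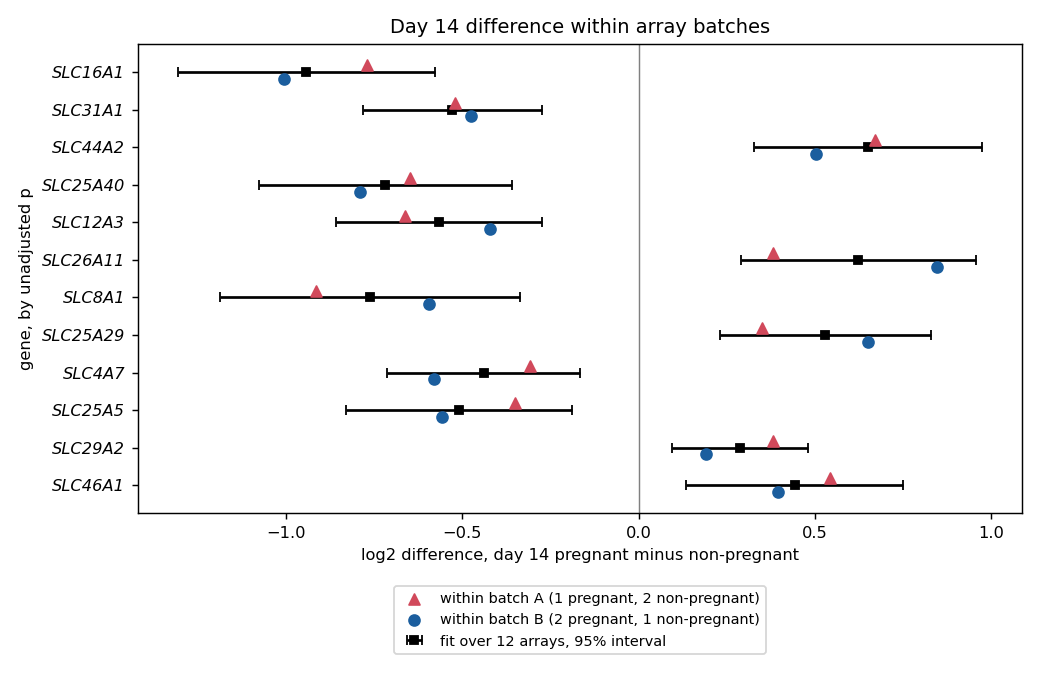
Day 14 log2 difference, pregnant minus non-pregnant (x axis), of the 12 solute carrier genes with the smallest p (y axis), from the fit over 12 arrays with its 95% interval (squares) and within batch A (triangles, 1 pregnant array against 2) and batch B (circles, 2 pregnant arrays against 1). The fit combines both batches and chose the genes, so the like signs are a description. The within-batch values of SLC16A1 are -0.77 and -1.01.

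For 4 members pregnancy went with opposite directions on the 2 days, with no overlap of the groups on either day, against 0.954% of all probe sets. SLC6A8, SLC12A3 and SLC31A1 were higher in pregnancy on day 12 and lower on day 14. SLC46A1 was lower on day 12, at 5.16, 5.01 and 4.96 against 5.25, 5.35 and 5.38, and higher on day 14, at 5.29, 5.37 and 5.53 against 4.93, 4.70 and 5.26. The interaction was -0.78 ± 0.17 for SLC31A1 (adjusted p = 0.172), -0.74 ± 0.20 for SLC12A3 (0.272), 0.74 ± 0.21 for SLC46A1 (0.291) and -0.61 ± 0.18 for SLC6A8 (0.308), so a change between the days was not shown for any of them. For 5 members the groups did not overlap in the same direction on both days, against 2.08% of all. They were SLC25A40, lower in pregnancy, and SLC29A1, SLC29A2, SLC35F6 and SLC44A2, higher in pregnancy.

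**Figure D4:**
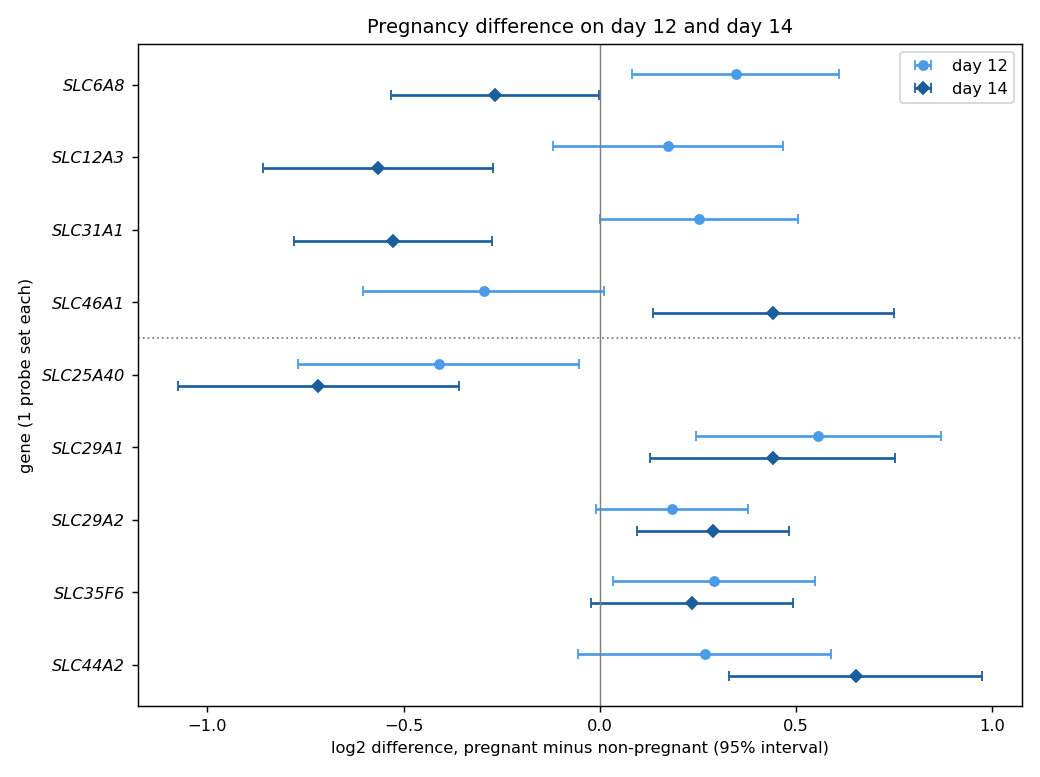
Log2 difference, pregnant minus non-pregnant, with its 95% interval (x axis) on day 12 (circles) and day 14 (diamonds) for the 4 members with opposite directions (above the dotted line) and the 5 with the same direction (below it) whose groups did not overlap on either day. None of the 9 passed after adjustment on either day.

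Because the day 14 non-pregnant arrays stood apart, members were also set against the other 9 arrays. The counts are of probe sets, and other probe sets of the same gene need not follow. In 6 members all 3 of these arrays were higher than every other array (2.91% of all probe sets): SLC10A1, SLC12A3, SLC16A1, SLC17A2, SLC4A7 and SLC6A8. In 10 members all 3 were lower (3.62% of all): SLC10A3, SLC16A13, SLC19A1, SLC25A14, SLC25A29, SLC26A11, SLC29A1, SLC29A2, SLC34A2 and SLC46A1. For SLC46A1 this was not the probe set with opposite directions on the 2 days but another, at 4.21, 3.97 and 4.06 in day 14 non-pregnant arrays and 4.22 to 4.75 in the others. Other measures of these arrays follow. The 3′ minus 5′ signal of the actin and GAPDH controls was 1.29 to 1.43 there, 1.44 to 1.60 in day 14 pregnant, 1.57 to 1.60 in day 12 pregnant and 1.42 to 1.47 in day 12 non-pregnant arrays, the last of which overlap with it. On day 14, 2 of the 11 measured luteal markers (STAR and NR5A2) passed as higher in pregnant ewes. So did 2 of 12 endothelial markers (CD34 and TIE1). Of 8 smooth muscle and pericyte markers 1 (CNN1) passed as lower. Over the whole array 1.45% of probe sets passed, and the lists were chosen with earlier results of these data known. Group means follow in the order day 12 non-pregnant, day 12 pregnant, day 14 non-pregnant and day 14 pregnant. They were 13.05, 13.02, 12.35 and 13.12 for STAR, 8.40, 8.51, 7.43 and 8.64 for NR5A2, and 6.27, 6.23, 7.79 and 6.18 for CNN1. They were 7.94, 8.33, 7.16 and 8.34 for CD34 and 6.91, 7.32, 6.66 and 7.09 for TIE1. Between days in non-pregnant ewes NR5A2 (-0.86 ± 0.14) and CNN1 (1.38 ± 0.16) passed, against 0.391% of all probe sets. Of the 11 luteal markers, 10 were above 0 on day 14, with a median of 0.43. The endothelial list was mixed, with 7 of 12 above 0 (PECAM1 at -0.40 ± 0.22). So was the smooth muscle and pericyte list, with 4 of 8 above 0 (MYH11 at 0.72 ± 0.19). Neither PECAM1 nor MYH11 passed. Of 12 macrophage markers 0 passed in limma, at a mean level of 6.36 to 7.37 in day 14 non-pregnant and 6.47 to 7.01 in day 14 pregnant arrays. Of the measured markers of T and NK cells, B and plasma cells, neutrophils, red blood cells, fibroblasts, and granulosa and follicle 0 passed on day 14 in limma. The part of these in the solute carrier differences was not tested.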

How the data were processed

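The values were the authors' deposited log2 values of 24128 probe sets, for which the submitters' processing notes name RMA and Affymetrix Expression Console (version not given in the sources used here). The RMA method corrects background, normalizes arrays by quantiles and sums probes, and gives no detection calls, so low readings may hold no signal. Total RNA was labelled with biotin, per the labels' protocols. After 112 control probe sets were left out, limma 3.58.1 in R 4.3.3 fitted 4 group means and an additive batch term to 12 arrays, with 7 residual degrees of freedom. The moderated test was two-sided, adjusted over 24016 probe sets. P-values rest on the spread between ewes within groups, pooled over the 4 groups of 3 ewes and moderated across probe sets. The number of arrays limits precision. The groups differed in spread, with a median SD of the members of 0.152 in day 14 non-pregnant ewes and 0.107 to 0.123 in the other groups.

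Symbols are those of GEO's platform annotation. Of 170 member symbols 167 occur in the sheep RefSeq table. The rule ends at family 52, so SLC66A1, SLC66A2 and SLC66A3 were left out, although the form of their symbols fits. No sequence or coordinate was used here. Named genes were members past the threshold, the 3 with the smallest p of each class over the day 14 and the non-pregnant day comparisons, the brightest of each of 5 main classes and 24 fixed genes. Members, lists and tests were chosen with earlier results of these data known. Dim means a mean level in the lowest 25% of probe sets, and 61 members were dim. Replicate numbers follow accession order and pair no samples. The fit was also run on simulated data drawn with the same spread in all groups. That run does not cover the difference in spread between the groups. The alternatives were no batch term, a random batch block, only the groups compared, leaving out each array, no dim probe sets, equal array medians, an intensity trend with robust spread, array quality weights and the mean of a gene's probe sets. Leaving out both batch A arrays of day 14 non-pregnant ewes was added after seeing the data.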

Additional observations from a re-analysis of the deposited data

How the results depend on the processing

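No paired analysis was possible because each array came from a different ewe, and the replicate numbers used here only name the arrays. The count of solute carrier probe sets that passed on day 14, 1 in the reported fit, was 5 without the batch term and 5 with batch as a random block (SLC12A3, SLC16A1, SLC26A11, SLC31A1 and SLC44A2), 3 with equal array medians, 2 without the dimmest 25% of probe sets, 2 with an intensity trend and robust spread, and 2 with the mean of a gene's probe sets. It was 0 with only the groups compared and 0 without both batch A arrays of day 14 non-pregnant ewes. Leaving out single arrays gave 0 to 3. It was 0 without day 14 pregnant replicate 1, 2 or 3, and SLC13A4 and SLC44A2 without day 14 non-pregnant replicate 1, where SLC13A4 lies outside the naming rule. Without day 12 non-pregnant replicate 2 it was SLC16A1 and SLC31A1, and without day 12 pregnant replicate 3 SLC16A1 and SLC44A2. Without day 14 non-pregnant replicate 2 it was 3 (SLC16A1, SLC20A1 and SLC8A1), and without replicate 3 also 3 (SLC16A1, SLC25A40 and SLC38A2). Between days in non-pregnant ewes the count of 0 became 3 without the batch term and 3 with the random block (SLC12A3 and both probe sets of SLC6A8), and 0 to 1 when single arrays were left out, with SLC38A2 passing without day 14 non-pregnant replicate 3. The counts of 0 on day 12, between days in pregnant ewes and for the interaction held in each alternative run. The interaction was not run with only the groups compared. No named difference that was called changed its sign. The share of all probe sets that passed is not given here for each alternative, so the counts of passing members are not read against the array. The causes were not tested. With 3 arrays a group and 1 array an ewe, small differences were not detectable.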

Other observations

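Some solute carriers varied most between single arrays rather than between groups, and were chosen here after their values were seen. SLC18A2, which loads monoamines such as serotonin and histamine into vesicles, had the largest SD over the 12 arrays, 0.86. It read 3.40, 3.28 and 6.05 in day 12 non-pregnant ewes, 4.13, 4.97 and 3.85 in day 12 pregnant ewes, 3.17, 4.49 and 3.65 in day 14 non-pregnant ewes and 4.55, 4.36 and 3.22 in day 14 pregnant ewes. One day 12 non-pregnant array was thus high, and all groups overlapped.

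SLC7A7, a light chain of a cationic amino acid exchanger, read 5.89, 6.78 and 7.22 in day 14 non-pregnant ewes, and 5.85 to 6.57 in the other 9 arrays (SD over all arrays 0.42). The high readings were replicates 2 and 3, both of batch A, in a group whose macrophage marker mean ranged from 6.36 to 7.37. The part of batch or of macrophages in the SLC7A7 values was not tested.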
